A study of Mus musculus with 12 samples.

Results

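DNA methylation in mammals is written, copied and taken off by a small group of proteins, and 9 of their genes were read here from 12 expression arrays of a mouse leukemia and of the colonies and induced pluripotent stem (iPS) cells made from it. The genes were picked by symbol: Dnmt1, Uhrf1, Dnmt3a, Dnmt3b, Dnmt3l, Tet1, Tet2, Tet3 and Tdg. A probe set of its own was found for 8 of the 9, among 22180 genes measured in all. Tdg, which encodes the glycosylase that cuts oxidised methylcytosine out of DNA, was covered only by 2 probe sets that also carry another gene symbol, so no value is given for it. Values below are log2 levels as deposited, 1 probe set per gene, and levels are compared between samples of a gene and never between genes.

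There were 4 groups with 3 arrays each. Established iPS cells carry Notch-1 in their titles, GFP-negative colonies have a source named as reprogrammed, GFP-positive colonies have one named as partially reprogrammed, and the leukemia, also titled Notch-1, was taken from spleen. The 3 groups other than leukemia are called reprogrammed below only as a short name, since the GFP-positive label says partially reprogrammed. Every sample, leukemia included, has the mouse genotype R26rtTA;Col1a12lox-4F2A, which carries Pou5f1, Sox2, Klf4 and Myc, the factors used for reprogramming, as an inducible cassette. The labels describe iPS cells and both kinds of colony as colonies from leukemia cells. They give neither age nor strain and do not say what GFP marks. Replicates are called biological, without a statement that they came from separate animals or cultures, and all leukemia titles bear a single leukemia number, so the p-values measure only the spread between these arrays.

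Dnmt1 copies methylation onto the new strand after replication, and Uhrf1 brings it to the hemimethylated sites. Dnmt3a and Dnmt3b set methylation at unmethylated sites, and Dnmt3l, which has no catalytic activity of its own, assists them. Tet1, Tet2 and Tet3 oxidise methylcytosine, the first step of active demethylation. Pluripotent mouse cells are known for high Dnmt3b, Dnmt3l, Tet1 and Tet2, while differentiated cells, blood cells included, use mainly Dnmt3a, Tet2 and Tet3.

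The arrays of iPS cells and of leukemia were tight groups, and the colonies were not. Between arrays of the same group the correlation over genes was 0.995 in iPS cells, 0.887 to 0.970 in GFP-negative colonies, 0.937 to 0.975 in GFP-positive colonies and 0.994 in leukemia. The labels were checked with Nanog, a pluripotency factor, and Cd3e, a chain of the T cell receptor complex. Nanog averaged 12.31 ± 0.09 in iPS cells, 9.42 ± 3.78 in GFP-negative colonies, 9.82 ± 1.99 in GFP-positive colonies and 4.72 ± 0.35 in leukemia (SD, n = 3). Cd3e averaged 6.64 ± 0.21, 7.33 ± 2.16, 8.78 ± 0.70 and 11.87 ± 0.05 in the same order of groups. Of the colony arrays, GFP-negative replicate 1 and GFP-positive replicate 3 stood apart: the mean of 12 pluripotency markers was 6.57 and 7.13 on them, against 8.54 to 10.15 on the other 4 colony arrays, 9.97 to 10.02 in iPS cells and 5.48 to 5.81 in leukemia. GFP-positive replicate 3 also had the highest mean of 7 leukocyte markers among the colonies, 8.78 against 6.25 to 7.35. The mean of 10 macrophage and granulocyte markers was 5.42 to 5.63 in iPS cells, 5.26 to 6.80 in GFP-negative colonies, 5.83 to 7.96 in GFP-positive colonies and 7.79 to 7.89 in the spleen leukemia. All 9 measured T lineage markers were lower than in leukemia in each of the 3 other groups, and of 8 epithelial markers iPS cells had 5 higher than leukemia, GFP-negative colonies 6 and GFP-positive colonies 8. Epithelial marker means were 8.44 to 8.50 in iPS cells, 8.06 to 12.07 in GFP-negative colonies, 11.50 to 11.81 in GFP-positive colonies and 5.34 to 5.51 in leukemia. Fibroblast marker means were 7.55 to 7.67, 5.53 to 6.21, 5.598 to 6.784 and 6.11 to 6.22 in the same groups. At an adjusted p under 0.05, 5 of these 8 markers were higher in iPS cells than in leukemia, with Dcn at 10.73 against 4.77. By the same limit GFP-positive colonies had 1 higher than leukemia and GFP-negative colonies had 0. Thy1 was the only one lower by that limit, in all 3 groups, and its level of 10.44 raised the leukemia mean. The iPS cells also had 5 higher than GFP-negative colonies and 6 higher than GFP-positive ones. The part of these cell types in the results was not tested. The main colony results below are also given without the arrays that stood apart. Those arrays were picked by their low pluripotency markers, which varied with Dnmt3b, Dnmt3l and Tet1 over the arrays. Leaving them out raises these 3 genes in the colonies and narrows their spread by that choice. The same choice bears on other genes that varied with or against these markers, such as Tet2, Tet3, Uhrf1, Prdm14, Dazl and Mael. Without those arrays, the adjusted p and calls of all such genes are therefore a description and no separate support.

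Against leukemia, 3 of the 8 measured genes were higher in iPS cells and 3 were lower, and the 3 arrays of each group did not overlap for any of the 8. Of all genes, 24.3% were called in this comparison, 12.4% higher and 11.9% lower, and 56.5% had arrays that did not overlap. A call is an adjusted p under 0.05 in limma over all genes. In GFP-negative colonies 1 gene was higher than in leukemia and 2 were lower, where 21.0% of all genes were called, 9.02% higher and 12% lower. In GFP-positive colonies 1 was higher and 1 was lower, where 21.9% of all genes were called, 9.60% higher and 12.3% lower. Arrays did not overlap with leukemia for 4 of the 8 genes in either kind of colony, against 37.2% of all genes for GFP-negative and 41.9% for GFP-positive colonies. Without both arrays that stood apart, 6 genes were called in each colony comparison with leukemia, 4 higher and 2 lower, and calls rose over all genes too, to 32.9% for GFP-negative colonies, 16.1% higher and 16.8% lower, and 32.6% for GFP-positive colonies, 15.7% higher and 16.9% lower. Since these are bulk samples, fewer cells that use a gene and less of its RNA per cell cannot be told apart.

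**Figure D1:**
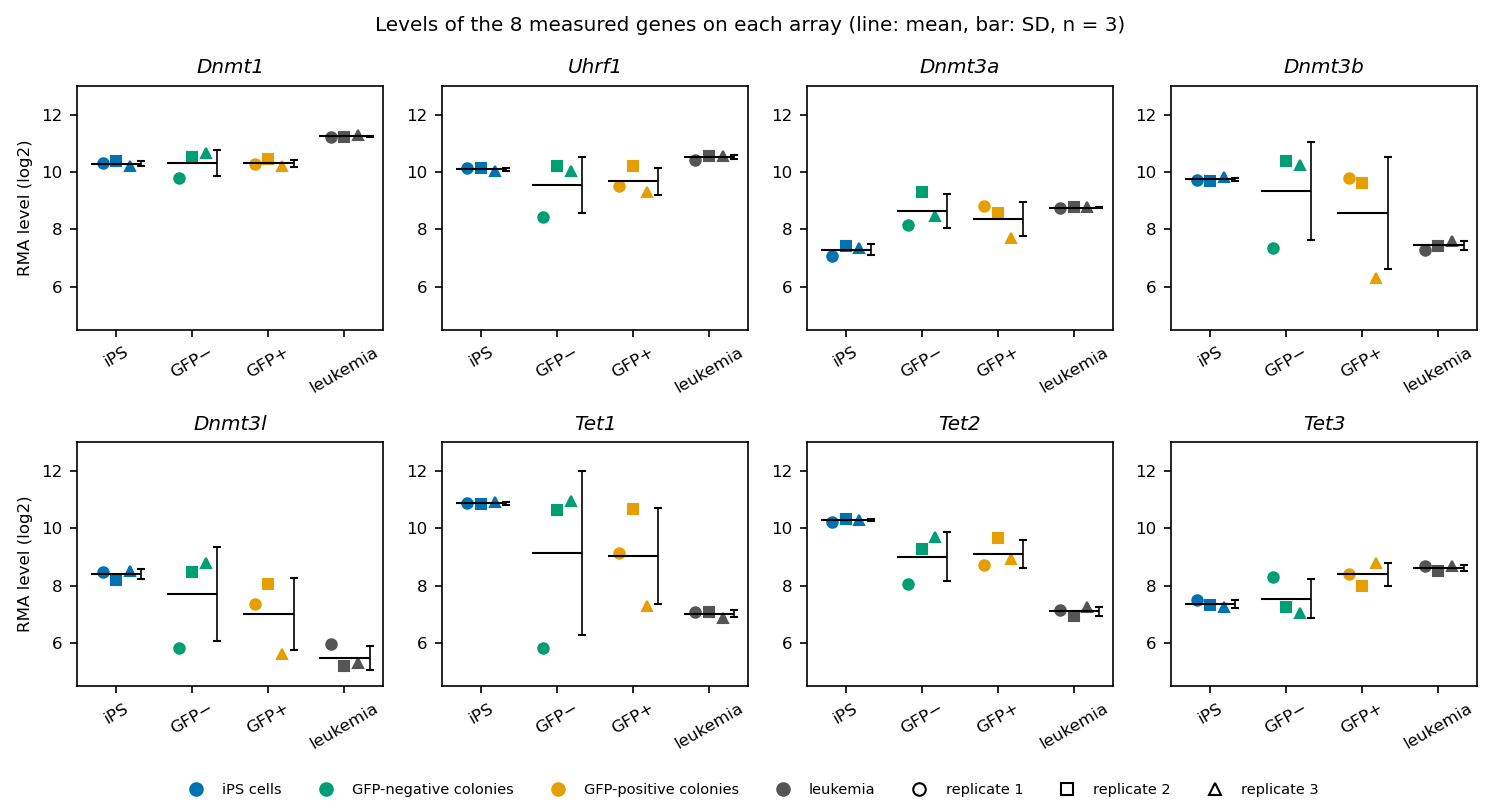
Log2 level of each of the 8 genes (vertical axis) on every array, by group (horizontal axis), with the line at the group mean and the bar showing the SD of 3 arrays. The iPS and leukemia arrays lie close together in every panel, while GFP-negative replicate 1 and GFP-positive replicate 3 lie far below the rest of their groups for Dnmt3b, Dnmt3l and Tet1.

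The maintenance enzyme gene Dnmt1 fell in all 3 reprogrammed groups by nearly the same amount. Its levels were 10.31, 10.37 and 10.20 in iPS cells, 9.80, 10.52 and 10.65 in GFP-negative colonies, 10.28, 10.45 and 10.20 in GFP-positive colonies, and 11.22, 11.23 and 11.28 in leukemia. Every leukemia array lay above all 9 others. The difference from leukemia was -0.95 ± 0.19 in iPS cells, a 1.93-fold lower level (SE, adjusted p = 0.00378, limma), -0.92 ± 0.19 in GFP-negative colonies (adjusted p = 0.00537) and -0.93 ± 0.19 in GFP-positive ones (adjusted p = 0.00489). All of these calls held under each of the 14 alternatives run for a comparison. Among the 3 reprogrammed groups the means were 10.29, 10.32 and 10.31, differences well within the spread of the arrays, and the 95% confidence interval for GFP-negative minus GFP-positive colonies was -0.40 to 0.43.

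Uhrf1, the recruiter of Dnmt1, had its highest levels in leukemia too, but the differences were not called in the fit of all 12 arrays. It read 10.13, 10.14 and 10.04 in iPS cells, 8.42, 10.22 and 10.02 in GFP-negative colonies, 9.52, 10.20 and 9.29 in GFP-positive colonies, and 10.43, 10.57 and 10.54 in leukemia. The leukemia arrays were above all others, and GFP-negative replicate 1 was the lowest. Differences from leukemia were -0.41 ± 0.40 in iPS cells (adjusted p = 0.532), -0.96 ± 0.40 in GFP-negative colonies (adjusted p = 0.122) and -0.84 ± 0.40 in GFP-positive colonies (adjusted p = 0.17). With iPS cells and leukemia fitted alone, whose arrays are tight, the same difference of -0.41 had an SE of 0.08 and an adjusted p of 0.00198. For GFP-positive colonies against leukemia Uhrf1 was called under 3 of the 14 alternatives: with both groups fitted alone (adjusted p = 0.0445), with array weights (adjusted p = 0.0127) and without the arrays that stood apart, at -0.65 ± 0.18 (adjusted p = 0.0167). The difference of GFP-negative colonies without those arrays was -0.39 ± 0.18 (adjusted p = 0.12). Uhrf1 is made mainly in dividing cells, and a list of 11 measured cell division genes varied with it: their mean was 9.13 on GFP-negative replicate 1, 9.59 to 10.43 on the other colony arrays, 10.46 to 10.50 in iPS cells and 10.67 to 10.70 in leukemia. Of these 11 genes, 2 were lower in iPS cells than in leukemia and 3 were lower in each kind of colony, and without the arrays that stood apart GFP-negative colonies had 4 lower and GFP-positive colonies 6. Their part in the Uhrf1 and Dnmt1 values was not tested.

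Windows around RefSeq transcript starts, 250 bases before and 50 after each, were read for all 8 genes (build GRCm38.p6, 15 windows). A window need not lie at the outermost annotated start of its gene. Windows are shown for Dnmt3b, Dnmt3l and Tet1, whose levels varied together over the arrays, and for Tet2, which was higher than leukemia in every reprogrammed group. Each is 5′ to 3′ on the strand of the gene, with CpG sites, the target of these enzymes, in capitals.
Dnmt3b, chr2:153649199-153649498, plus strand: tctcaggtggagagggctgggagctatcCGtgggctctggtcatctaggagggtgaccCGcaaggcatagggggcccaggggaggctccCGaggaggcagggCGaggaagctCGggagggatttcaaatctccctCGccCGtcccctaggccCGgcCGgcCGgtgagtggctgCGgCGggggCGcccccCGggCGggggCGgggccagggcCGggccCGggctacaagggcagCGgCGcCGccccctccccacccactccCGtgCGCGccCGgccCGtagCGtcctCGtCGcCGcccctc
Dnmt3l, chr10:78042037-78042336, plus strand: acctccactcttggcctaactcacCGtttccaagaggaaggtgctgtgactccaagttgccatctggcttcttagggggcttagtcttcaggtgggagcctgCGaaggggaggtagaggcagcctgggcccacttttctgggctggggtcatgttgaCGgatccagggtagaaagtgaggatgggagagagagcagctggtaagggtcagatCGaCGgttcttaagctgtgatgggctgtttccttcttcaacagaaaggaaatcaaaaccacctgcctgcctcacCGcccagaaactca
Tet1, chr10:62887275-62887574, minus strand: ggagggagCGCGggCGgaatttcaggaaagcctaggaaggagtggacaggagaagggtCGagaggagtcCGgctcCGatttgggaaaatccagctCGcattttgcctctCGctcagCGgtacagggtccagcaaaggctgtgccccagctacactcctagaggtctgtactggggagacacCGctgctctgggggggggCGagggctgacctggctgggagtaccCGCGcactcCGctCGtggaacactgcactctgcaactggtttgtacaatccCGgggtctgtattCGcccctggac
Tet2, chr3:133544341-133544640, minus strand: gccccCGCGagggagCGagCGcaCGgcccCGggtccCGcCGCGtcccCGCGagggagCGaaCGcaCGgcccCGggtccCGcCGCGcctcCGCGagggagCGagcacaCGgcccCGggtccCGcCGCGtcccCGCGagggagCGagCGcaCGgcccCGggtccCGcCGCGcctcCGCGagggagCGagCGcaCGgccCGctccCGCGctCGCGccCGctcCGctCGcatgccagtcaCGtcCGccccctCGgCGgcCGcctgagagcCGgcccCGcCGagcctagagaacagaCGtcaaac
The Dnmt3l window is the first of 3 for that gene along its strand.

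These windows differ widely in CpG content. Tet2 had 57 CpG sites, more than 99.8% of the 32851 windows of this length in the table, whose median is 7. Dnmt3b had 30 and Tet1 had 17, above 88.3% and 68.6% of windows. Dnmt3l had 6 in the window shown and 4 and 3 in its other windows, fewer than the median. The first Dnmt3a windows read along its strand held 46 and 47 sites, and Tet3 had 22. A search on both strands found the GC box GGGCGG 4 times in the Dnmt3b window and once in each of the other 3 shown, and 35.7% of all windows hold it. Its letters contain CG, so this count overlaps the CpG count. The RBPJ core TGGGAA, a motif of the factor through which Notch acts, occurred once in the Tet1 window and not in the other 3 shown. Among the windows not shown, it occurred in a window of Dnmt1, of Dnmt3a and of Tet3, and 25.6% of all windows hold it. The octamer ATGCAAAT, bound by Pou5f1, was in none of the 15 windows, against 1.74% of all windows. The CCAAT box CCAAT, the E-box CACGTG and the E2F site TTTGGCGC were in none of the 4 windows shown, against 37.4%, 7.15% and 0.514% of all windows. These matches only describe letters in the windows.

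Of the de novo group, Dnmt3a fell and Dnmt3l rose in iPS cells against leukemia, while Dnmt3b was not called. Dnmt3a, the form used by blood cells, read 7.07, 7.43 and 7.35 in iPS cells, 8.15, 9.30 and 8.45 in GFP-negative colonies, 8.82, 8.59 and 7.69 in GFP-positive colonies, and 8.73, 8.77 and 8.77 in leukemia. Only the iPS cells lay clear of leukemia, and both kinds of colony overlapped it. It fell in iPS cells by 1.47 ± 0.32 on the log2 scale, or 2.78-fold (adjusted p = 0.00649), a call made under all 14 alternatives. In GFP-negative colonies it differed from leukemia by -0.12 ± 0.32 (adjusted p = 0.833) and in GFP-positive colonies by -0.39 ± 0.32 (adjusted p = 0.44). Without the arrays that stood apart these differences were 0.12 ± 0.22 (adjusted p = 0.728) and -0.06 ± 0.22 (adjusted p = 0.882). The iPS mean was the lowest of the 4, and the order of the other 3, which did not differ beyond their spread, rests on those arrays.

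Dnmt3b, the main de novo enzyme of early embryonic cells, was high in iPS cells and in most colonies. Its levels were 9.72, 9.69 and 9.81 in iPS cells, 7.36, 10.38 and 10.25 in GFP-negative colonies, 9.78, 9.63 and 6.29 in GFP-positive colonies, and 7.29, 7.42 and 7.59 in leukemia. The iPS arrays and 4 of the 6 colony arrays were far above leukemia, while GFP-negative replicate 1 was within the leukemia range and GFP-positive replicate 3 was below it. The difference of iPS cells from leukemia was 2.31 ± 0.94, 4.94-fold, and was not called (adjusted p = 0.105) in the fit of 4 groups, whose SE includes the widely spread colonies. With these groups fitted alone it was 2.31 ± 0.09 (adjusted p = 1.53e-07). Differences from leukemia were 1.89 ± 0.94 in GFP-negative colonies (adjusted p = 0.192) and 1.13 ± 0.94 in GFP-positive colonies (adjusted p = 0.451). Without the arrays that stood apart they were 2.88 ± 0.12 (adjusted p = 1.13e-07) and 2.27 ± 0.12 (adjusted p = 5.05e-07).

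The cofactor gene Dnmt3l followed Dnmt3b. It read 8.47, 8.19 and 8.51 in iPS cells, 5.82, 8.48 and 8.80 in GFP-negative colonies, 7.37, 8.06 and 5.61 in GFP-positive colonies, and 5.96, 5.19 and 5.29 in leukemia. The same 2 colony arrays lay in the leukemia range, and the other 4 were above it. Dnmt3l was dim in leukemia, where its mean of 5.48 lay below the medians of the arrays, 5.76 to 5.82. Dnmt3l rose 7.49-fold in iPS cells over leukemia, a log2 difference of 2.91 ± 0.76 (adjusted p = 0.0176), a call made under 10 of 14 alternatives and lost without iPS replicate 1 or 3 or leukemia replicate 2 or 3, with adjusted p up to 0.0632. In GFP-negative colonies the difference was 2.22 ± 0.76 (adjusted p = 0.0637) and in GFP-positive colonies 1.53 ± 0.76 (adjusted p = 0.191). Both were called without the arrays that stood apart, at 3.16 ± 0.26 (adjusted p = 1.1e-05) and 2.24 ± 0.26 (adjusted p = 0.00012).

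**Figure D2:**
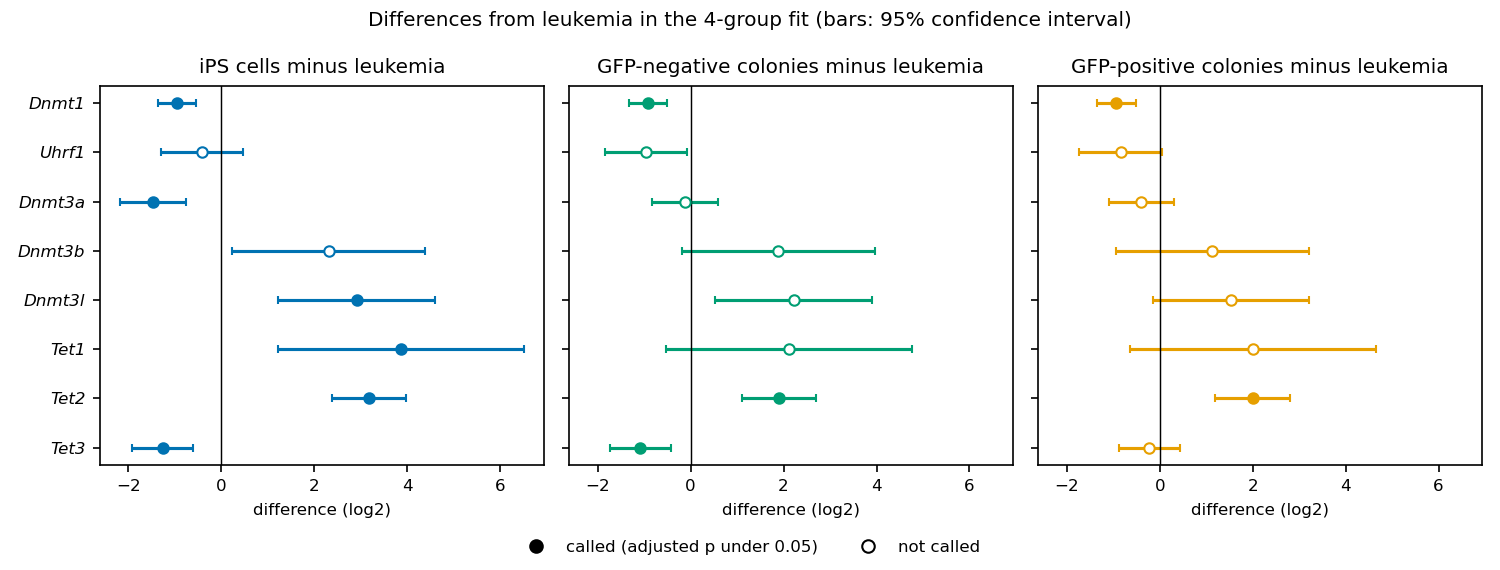
Log2 difference from leukemia of each gene (horizontal axis) in iPS cells, GFP-negative colonies and GFP-positive colonies, with 95% confidence intervals from limma over all 12 arrays, filled where the adjusted p is under 0.05. Dnmt1 is lower and Tet2 higher in all 3 panels, while Dnmt3a, Dnmt3l and Tet1 are filled in the iPS panel alone.

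Among the dioxygenases, Tet2 was the one whose rise was called in every reprogrammed group. It read 10.23, 10.32 and 10.30 in iPS cells, 8.06, 9.26 and 9.70 in GFP-negative colonies, 8.73, 9.65 and 8.94 in GFP-positive colonies, and 7.14, 6.94 and 7.25 in leukemia. All 6 colony arrays lay between leukemia and iPS cells and overlapped neither, the arrays that stood apart included. Tet2 was 9.04-fold higher in iPS cells than in leukemia (3.18 ± 0.36, adjusted p = 0.000112), 3.72-fold higher in GFP-negative colonies (1.90 ± 0.36, adjusted p = 0.00372) and 3.99-fold higher in GFP-positive colonies (1.997 ± 0.362, adjusted p = 0.0027). These calls held under all 14 alternatives in each comparison. Both kinds of colony differed from each other by -0.10 ± 0.36, with a 95% confidence interval of -0.90 to 0.70, and by 0.29 ± 0.26 without the arrays that stood apart (adjusted p = 0.551).

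Tet1, the dioxygenase most tied to pluripotent cells, had the largest difference of the 8 genes between iPS cells and leukemia, and the widest log2 range over the 6 colony arrays. Its levels were 10.86, 10.83 and 10.93 in iPS cells, 5.83, 10.63 and 10.95 in GFP-negative colonies, 9.14, 10.66 and 7.30 in GFP-positive colonies, and 7.09, 7.09 and 6.87 in leukemia. GFP-negative replicates 2 and 3 and GFP-positive replicate 2 came close to iPS cells, and GFP-negative replicate 1 was below every leukemia array. Tet1 rose 14.5-fold in iPS cells over leukemia (3.86 ± 1.19, adjusted p = 0.0382). That call was lost whenever any single array of either group was left out, with adjusted p up to 0.102, and with both groups fitted alone the adjusted p was 8.75e-09. In GFP-negative colonies the difference was 2.12 ± 1.19 (adjusted p = 0.251) and in GFP-positive colonies 2.01 ± 1.19 (adjusted p = 0.278). Without the arrays that stood apart these became 3.78 ± 0.34 (adjusted p = 1.97e-05) and 2.88 ± 0.34 (adjusted p = 0.000127).

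Tet3, the dioxygenase of the egg and of many differentiated cells, ran the other way. It read 7.49, 7.33 and 7.25 in iPS cells, 8.31, 7.26 and 7.03 in GFP-negative colonies, 8.41, 7.99 and 8.77 in GFP-positive colonies, and 8.67, 8.51 and 8.68 in leukemia. GFP-positive colonies overlapped leukemia, and GFP-negative replicates 2 and 3 were as low as iPS cells. Tet3 fell in iPS cells by 1.26 ± 0.30, a 2.40-fold lower level than in leukemia (adjusted p = 0.00999, called under all 14 alternatives). In GFP-negative colonies it fell by 1.09 ± 0.30 (adjusted p = 0.0243), but this call was made under only 8 of 14 alternatives and was lost with both groups fitted alone (adjusted p = 0.0849) and without GFP-negative replicate 2 or 3 or any one leukemia array. In GFP-positive colonies the difference from leukemia was -0.23 ± 0.30 (adjusted p = 0.647), and -0.42 ± 0.15 without the arrays that stood apart (adjusted p = 0.0541).

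GFP-negative and GFP-positive colonies were not told apart by these genes. In this comparison 0 of the 8 were called and 0% of all genes. An unadjusted limma p under 0.05 was found for 1413 of the 22180, and many genes would pass that limit with no difference. Arrays of the groups overlapped for all 8 genes, against 6.53% of all genes with no overlap. Tet3 came closest, at -0.86 ± 0.30 (limma, unadjusted p = 0.0151, adjusted p = 0.731). The 95% confidence intervals were widest for Dnmt3b, at -1.32 to 2.84, Dnmt3l, at -1.001 to 2.369, and Tet1, at -2.53 to 2.75. For these genes large differences were not excluded. The intervals of Dnmt1 and Tet2, given above, were narrower. The absence of calls turned on the arrays that stood apart. Without GFP-negative replicate 1, 1019 genes were called, Tet3 among them as lower in GFP-negative colonies. With GFP-positive replicate 3 left out as well, 1049 genes, 4.73% of all, were called, Dnmt3b was 0.61 ± 0.13 higher in GFP-negative colonies (adjusted p = 0.0308) and Tet3 differed by -1.05 ± 0.16 (adjusted p = 0.00781).

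**Figure D3:**
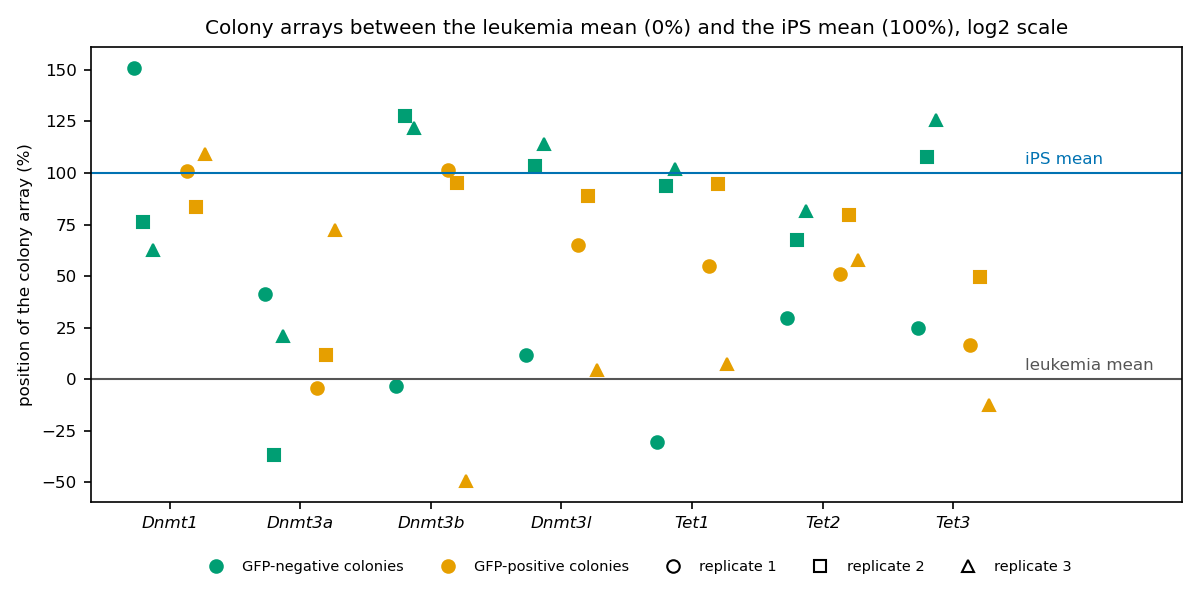
Position of each colony array (vertical axis, percent) on the log2 scale between the leukemia mean at 0% and the iPS mean at 100%, for the 7 genes (horizontal axis) whose iPS and leukemia means lie at least 0.5 apart. Tet2 arrays sit between 29.9% and 81.6%, and Dnmt3b arrays range over -49.5% to 128%.

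Placing each colony array between the leukemia mean at 0% and the iPS mean at 100% showed how unevenly the genes had moved within a colony sample. The measure is a description, and Uhrf1 was left out because its iPS and leukemia means lie too close together. The median over the 6 colony arrays was 98.4% for Dnmt3b, 92.3% for Dnmt1, 77.0% for Dnmt3l, 74.4% for Tet1, 62.7% for Tet2, 37.2% for Tet3 and 16.2% for Dnmt3a. Tet2 had the narrowest range, and Dnmt3b the widest. On GFP-negative replicate 2, Dnmt3b stood at 128% and Tet1 at 93.8%, while Dnmt3a stood at -36.9%, higher in level than any leukemia array. GFP-positive replicate 3 showed the reverse, with Dnmt3a at 72.5% but Dnmt3b at -49.5%, Dnmt3l at 4.56% and Tet1 at 7.22%. On GFP-positive replicate 1 Dnmt3b had reached 102%, Tet1 54.9% and Tet3 16.7%.

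Dnmt3b, Dnmt3l and Tet1 varied together from array to array. Over the 12 arrays Pearson's r was 0.96 for Dnmt3l and Tet1, 0.94 for Dnmt3b and Dnmt3l and 0.91 for Dnmt3b and Tet1, and r was -0.91 for Tet3 and Dnmt3l. Dnmt1 and Uhrf1 had an r of 0.80. Arrays of a group share their source, so these values describe the 12 arrays and carry no p. Much of the spread lay within the colony groups, where Dnmt3b had an SD of 1.71 (GFP-negative) and 1.97 (GFP-positive). The level of the pluripotency markers on each array varied with Dnmt3b, Dnmt3l and Tet1, as the plot beside the marker lists shows, and their part in the results was not tested.

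**Figure D4:**
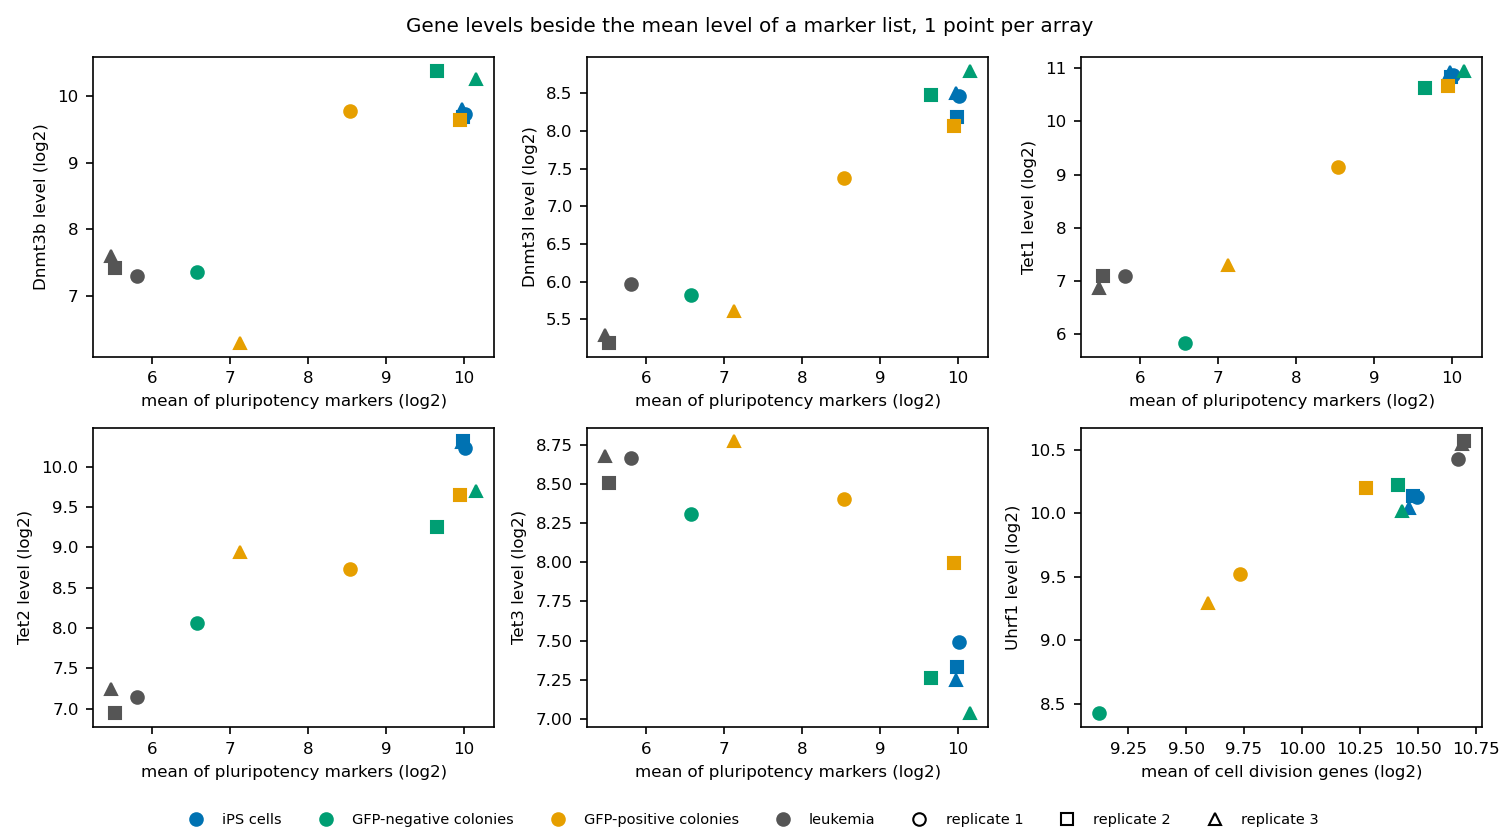
Log2 level of 6 genes (vertical axes) beside the mean log2 level of the pluripotency markers or, for Uhrf1, of the cell division genes (horizontal axes), 1 point per array. Arrays with a pluripotency mean of 6.57 and 7.13 have Dnmt3l at 5.82 and 5.61, and Tet3 at 8.31 and 8.77.

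Against GFP-positive colonies, iPS cells showed 0 called genes of the 8, where 10.4% of all genes were called, 6.15% higher and 4.23% lower. The arrays did not overlap for 5 of the 8 genes, and 38.1% of all genes had no overlap. Dnmt3a differed by -1.08 ± 0.32 (adjusted p = 0.0561), Tet3 by -1.03 ± 0.30 (adjusted p = 0.0508) and Tet2 by 1.18 ± 0.36 (adjusted p = 0.0635). Tet2 and Tet3 were called with these groups fitted alone (adjusted p = 0.0258 for each). The differences of Dnmt3b, 1.17 ± 0.94, Dnmt3l, 1.37 ± 0.76, and Tet1, 1.84 ± 1.19, had adjusted p of 0.464, 0.276 and 0.355. Leaving out GFP-positive replicate 3, as the fit without both arrays that stood apart does, brought them to 0.04 ± 0.12 (adjusted p = 0.882), 0.67 ± 0.26 (adjusted p = 0.106) and 0.97 ± 0.34 (adjusted p = 0.0734). In that fit 3 of the 8 were called, where 20.4% of all genes were: Dnmt3a at -1.42 ± 0.22 (adjusted p = 0.00217), Tet2 at 1.097 ± 0.239 (adjusted p = 0.0109) and Tet3 at -0.84 ± 0.15 (adjusted p = 0.00392).

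Against GFP-negative colonies, Dnmt3a alone of the 8 fell in iPS cells, by 1.35 ± 0.32 or 2.55-fold (adjusted p = 0.0429), where 4.25% of all genes were called, 2.94% higher and 1.32% lower. This call was made under 8 of 14 alternatives, and the adjusted p was 0.118 with these groups fitted alone. It was also lost with the replicate number as a block (adjusted p = 0.0519) and without GFP-negative replicate 2 or any one iPS array, with adjusted p up to 0.164. Tet2 was the other gene whose arrays did not overlap, with 1.28 ± 0.36 (adjusted p = 0.0789), and 27.1% of all genes had no overlap. Dnmt3b differed by 0.41 ± 0.94 (adjusted p = 0.846), but by -0.57 ± 0.12 without the arrays that stood apart (adjusted p = 0.0163), and GFP-negative replicates 2 and 3 were higher than every iPS array.

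The partners of maintenance methylation fell in part. Of 6 measured, 2 fell in iPS cells and 3 in each kind of colony, and 0 rose, with a median difference from leukemia of -0.38 in iPS cells, -0.76 in GFP-negative colonies and -0.69 in GFP-positive colonies, against -0.03, -0.01 and -0.04 over all genes. The share of all genes called lower was 11.9%, 12% and 12.3% in these comparisons, and the share called higher 12.4%, 9.02% and 9.60%. The counts of the lists below with all 12 arrays stand beside the same shares. A refit of the lists without the arrays that stood apart was added after the data were seen, and there 2 partners rose and 3 fell in GFP-negative colonies and 1 rose and 4 fell in GFP-positive ones. In that refit 16.1% of all genes were called higher and 16.8% lower in GFP-negative colonies, and 15.7% and 16.9% in GFP-positive ones. Counts from the refit for the lists below stand beside these shares. Uhrf2, a relative of Uhrf1, fell in all 3 groups, with differences of -0.65 ± 0.16 in iPS cells (adjusted p = 0.0108), -0.81 ± 0.16 in GFP-negative colonies and -0.70 ± 0.16 in GFP-positive colonies. Pcna, the sliding clamp of replication, also fell, with differences of -0.46 ± 0.12, -0.81 ± 0.12 and -0.83 ± 0.12 in the same groups. Cdca7, a partner of the remodelling enzyme Hells, fell by 2.29 ± 0.66 in GFP-negative colonies (adjusted p = 0.0316) and fell by 2.31 ± 0.66 in GFP-positive colonies (adjusted p = 0.0295). In that refit the difference in GFP-negative colonies was -1.28 ± 0.17 (adjusted p = 0.000259). Its levels were 10.29, 10.18 and 10.21 in iPS cells, 7.15, 10.18 and 10.15 in GFP-negative colonies, 9.06, 9.74 and 8.61 in GFP-positive colonies, and 11.44, 11.41 and 11.50 in leukemia. The refit also called partners in iPS cells against leukemia that all 12 arrays did not. Hells was higher by 0.73 ± 0.14 (adjusted p = 0.00178) and Usp7 by 0.36 ± 0.10 (adjusted p = 0.0139), and Cdca7 differed by -1.23 ± 0.15 (adjusted p = 0.000127).

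Of 16 genes that regulate the Dnmt3 and Tet enzymes or supply their cofactors, 3 rose and 2 fell in iPS cells relative to leukemia, 2 rose and 3 fell in GFP-negative colonies, and 2 rose and 4 fell in GFP-positive colonies, with median differences of 0.15, -0.13 and -0.26. These are 18.8% and 12.5% of the list in iPS cells, 12.5% and 18.8% in GFP-negative colonies and 12.5% and 25.0% in GFP-positive colonies, most of them near the shares of all genes called. In the refit without the arrays that stood apart 5 rose and 2 fell in GFP-negative colonies, and 4 rose and 4 fell in GFP-positive colonies. Idh1 makes alpha-ketoglutarate, which the Tet enzymes consume. It read 8.64, 8.56 and 8.52 in iPS cells, 9.28, 9.03 and 9.34 in GFP-negative colonies, 9.36, 9.45 and 9.11 in GFP-positive colonies, and 7.11, 7.17 and 7.28 in leukemia. The groups did not overlap apart from the colonies with each other. Idh1 rose by 1.39 ± 0.12 in iPS cells (adjusted p = 1.54e-05), 2.03 ± 0.12 in GFP-negative colonies (adjusted p = 9.6e-07) and 2.12 ± 0.12 in GFP-positive colonies (adjusted p = 7.32e-07). The iPS cells were lower than both kinds of colony, with differences of -0.64 ± 0.12 against GFP-negative colonies (adjusted p = 0.0165) and -0.73 ± 0.12 against GFP-positive colonies (adjusted p = 0.00693).

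Zfp57, a zinc finger protein that keeps methylation at imprinted regions, rose over leukemia by 3.45 ± 0.31 in iPS cells, 2.63 ± 0.31 in GFP-negative colonies and 2.35 ± 0.31 in GFP-positive colonies. Its levels were 9.15, 9.18 and 9.11 in iPS cells, 7.62, 8.54 and 8.82 in GFP-negative colonies, 7.99, 8.54 and 7.60 in GFP-positive colonies, and 5.96, 5.37 and 5.77 in leukemia. Like Tet2, it was above leukemia on every colony array. Smchd1, needed for methylation on the inactive X chromosome, fell in the same groups, with differences of -1.79 ± 0.10, -1.31 ± 0.10 and -1.37 ± 0.10, and was lower in iPS cells than in GFP-negative colonies (-0.47 ± 0.10, adjusted p = 0.0251) and GFP-positive colonies (-0.42 ± 0.10, adjusted p = 0.0261). Prdm14, which represses Dnmt3b and Dnmt3l in mouse pluripotent cells, rose by 2.34 ± 0.54 in iPS cells (adjusted p = 0.0095). In GFP-negative colonies it differed from leukemia by 1.06 ± 0.54 (adjusted p = 0.207) and in GFP-positive colonies by 0.91 ± 0.54 (adjusted p = 0.283), and without the arrays that stood apart both were called, at 1.59 ± 0.43 (adjusted p = 0.0165) and 1.26 ± 0.43 (adjusted p = 0.0465).

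The other genes called in that list moved less. Setd2, which writes a histone mark read by the Dnmt3 enzymes, fell in all 3 groups, with differences of -0.40 ± 0.09 in iPS cells, -0.33 ± 0.09 in GFP-negative colonies and -0.37 ± 0.09 in GFP-positive colonies. The zinc finger gene Cxxc5 fell by 0.44 ± 0.14 in GFP-negative colonies and fell by 0.51 ± 0.14 in GFP-positive colonies relative to leukemia, and it was higher in iPS cells than in GFP-negative colonies by 0.74 ± 0.14 and than in GFP-positive colonies by 0.82 ± 0.14. The histone methyltransferase gene Ehmt1 fell by 0.29 ± 0.08 in GFP-positive colonies (adjusted p = 0.0295). The calls of Cxxc5 in GFP-negative colonies (adjusted p = 0.0704) and of Ehmt1 (adjusted p = 0.0509) were lost without the arrays that stood apart.

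Readers and repair genes were lower after reprogramming where they were called with all 12 arrays, with 1 exception. Of 7 genes listed as methyl-CpG readers, whose binding was not examined, 2 fell in iPS cells, 4 in GFP-negative colonies and 3 in GFP-positive colonies. None rose, and the median differences were -0.51, -0.39 and -0.48. In the refit without the arrays that stood apart 4 fell in each kind of colony. Mbd2, a repressor that binds methylated CpG, fell by 1.53 ± 0.35 in iPS cells (adjusted p = 0.0086) and fell by 1.19 ± 0.35 in GFP-negative colonies (adjusted p = 0.0346). Mbd4, a reader that is also a glycosylase, fell by 1.09 ± 0.28 in GFP-negative colonies (adjusted p = 0.0182) and fell by 1.44 ± 0.28 in GFP-positive colonies (adjusted p = 0.00393). Mbd1, another repressor, fell by 1.27 ± 0.33 in GFP-negative colonies (adjusted p = 0.0207). Zbtb33 fell in all 3 groups, with differences of -0.55 ± 0.10, -0.39 ± 0.10 and -0.48 ± 0.10 in iPS cells, GFP-negative and GFP-positive colonies. Mbd3 fell by 0.47 ± 0.15 in GFP-positive colonies. Without the arrays that stood apart the difference of Mbd4 in GFP-negative colonies was -0.71 ± 0.17 (adjusted p = 0.00997), the Mbd3 call was lost (adjusted p = 0.0804), and in GFP-positive colonies Mbd1 and Mbd2 were called lower (adjusted p = 0.00502 and 0.0384).

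Of 14 genes of base excision repair and cytosine deamination, 5 fell in iPS cells, 5 in GFP-negative colonies and 4 in GFP-positive colonies, with median differences of -0.23, -0.33 and -0.43. That is 35.7%, 35.7% and 28.6% of the list, against 11.9%, 12% and 12.3% of all genes called lower. In the refit without those arrays 5 fell and 2 rose in GFP-negative colonies, and 6 fell and 1 rose in GFP-positive colonies. The glycosylase gene Neil3 fell most, with differences of -2.63 ± 0.36 in iPS cells (adjusted p = 0.000382), -2.54 ± 0.36 in GFP-negative colonies and -2.40 ± 0.36 in GFP-positive colonies. The glycosylase gene Neil1, the repair polymerase gene Polb and the stress-response gene Gadd45g fell in all 3 groups as well, and the deaminase gene Apobec3 fell in iPS cells and GFP-negative colonies. The single rise was that of the deaminase gene Apobec1 in GFP-positive colonies, by 1.74 ± 0.54 (adjusted p = 0.0441). It read 7.77, 8.27 and 10.34 there, with the highest value on the array that also had the highest leukocyte and macrophage markers, against 6.91, 7.15 and 7.11 in leukemia. Its difference was 0.96 ± 0.21 in the refit without the arrays that stood apart (adjusted p = 0.00503). The part of those markers' cells in the result was not tested.

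In the methyl donor cycle, Mtrr, the reductase that keeps methionine synthase active, rose over leukemia by 1.25 ± 0.24 in iPS cells (adjusted p = 0.00352), 1.05 ± 0.24 in GFP-negative colonies (adjusted p = 0.0106) and 0.77 ± 0.24 in GFP-positive colonies (adjusted p = 0.0436). Of the 8 measured genes listed for the cycle, 2 others were called against leukemia: in iPS cells Ahcyl1 fell by 0.56 ± 0.15 and Ahcyl2 fell by 0.48 ± 0.15. In the refit without the arrays that stood apart 1 rose and 2 fell in GFP-negative colonies, and 1 rose and 1 fell in GFP-positive ones. Mtr, the methionine synthase gene, fell there by 0.74 ± 0.22 (adjusted p = 0.0293) and 1.09 ± 0.22 (adjusted p = 0.00395). With all arrays its adjusted p was 0.0602 and 0.215. Mat2b, a subunit of the enzyme that makes the methyl donor, was higher in iPS cells than in GFP-positive colonies by 0.81 ± 0.22 (adjusted p = 0.0441).

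Germline genes that somatic cells keep silent by promoter methylation were in part higher in iPS cells than in leukemia. Of 10 measured, 5 rose in iPS cells over leukemia, 1 in GFP-negative colonies and 0 in GFP-positive colonies, and 0 fell, with median differences of 0.65, 0.16 and 0.05. In the refit 4 rose in GFP-negative colonies and 3 in GFP-positive ones. Dazl, an RNA-binding protein of germ cells, read 9.39, 9.39 and 9.32 in iPS cells, 5.79, 7.67 and 8.78 in GFP-negative colonies, 6.34, 7.81 and 5.78 in GFP-positive colonies, and 5.02, 5.19 and 5.11 in leukemia. All iPS arrays lay above every colony array, and every colony array above leukemia. Dazl rose over leukemia by 4.26 ± 0.66 in iPS cells (adjusted p = 0.000909) and by 2.31 ± 0.66 in GFP-negative colonies (adjusted p = 0.0309), and it was higher in iPS cells than in GFP-positive colonies by 2.72 ± 0.66 (adjusted p = 0.0299). The germline genes Mael, Ddx4, Mov10l1 and Taf7l rose in iPS cells by 2.25 ± 0.72, 1.25 ± 0.17, 1.02 ± 0.27 and 0.33 ± 0.11. Ddx4 and Taf7l were dim, with means of 5.19 and 4.05 in iPS cells and 3.94 and 3.72 in leukemia. These means lie below the medians of the arrays, 5.76 to 5.82. So do the leukemia means of Dazl, Mael and Mov10l1, at 5.11, 4.73 and 5.56. Methylation itself was not measured in these samples.

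Each of the 8 genes was set beside the genes whose range over the arrays was at least 2 on the log2 scale, and the 3 with the highest Pearson r over the 12 arrays are given as a description. Symbols that start with Gm and a digit or with LOC, or end in Rik, were left out of this ranking. Dnmt3l was closest to the pluripotency genes Utf1 (r = 0.992) and Dppa4 (0.990) and to Cecr2 (0.990). Dnmt3b was closest to Foxh1 (0.975), Smim40 (0.974) and Gga2 (0.972), and Tet1 to Zfp992 (0.992), Mreg (0.988) and Zfp979 (0.988). Uhrf1 had Incenp (0.987), a protein of dividing chromosomes, Snord104 (0.978) and the replication licensing gene Cdt1 (0.978). For Tet2 they were Ano9 (0.990), Mok (0.987) and Zswim7 (0.986), and for Tet3 the cytokine gene Tnf (0.971), Lyst (0.969) and Irf2 (0.969). Dnmt1 had Fgr (0.969), Pik3cd (0.969) and Slc16a1 (0.968), and Dnmt3a had AI662270 (0.886), Arhgef3 (0.835) and Elmo1 (0.831), the lowest values of the 8. Over the 9 arrays without leukemia the names mostly changed, with 0 of 3 shared for Dnmt1, Dnmt3l, Tet1, Tet2 and Tet3 and 1 of 3 for Uhrf1, Dnmt3a and Dnmt3b. Tet1 was then closest to the pluripotency factor Sox2 (0.998), whose probe set may also read the cassette, and Dnmt3b again to Foxh1 (0.993).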

How the data were processed

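The study measured RNA on 12 Affymetrix arrays of mouse cells, 3 in each of 4 groups. The RNA was total RNA prepared with Trizol and labelled the standard Affymetrix way, per the labels' protocols. What the authors deposited is a table of log2 values from RMA, per the submitters' processing notes. RMA corrects background, sets all arrays to 1 distribution and summarises probes, and so hides a shift shared by most genes. Its software version is not given in the sources read. There were 41345 probe sets, with 0 values missing. Array medians were 5.76 to 5.82, no detection values were used, and precision is limited by the number of arrays.

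The platform annotation gave 23521 probe sets 1 gene symbol, 1814 several and 16010 none. Those with 1 symbol were kept, and the brightest probe set of each gene gave 22180 genes. Each of the 8 genes reported has 1 such probe set: 17524535 for Dnmt1, 17338747 for Uhrf1, 17273652 for Dnmt3a, 17377963 for Dnmt3b, 17234763 for Dnmt3l, 17241512 for Tet1, 17410492 for Tet2 and 17468157 for Tet3. Whether they read every isoform was not examined.

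Differences come from limma 3.58.1 (R 4.3.3), with a mean for each of the 4 groups estimated over the 12 arrays and two-sided moderated tests. There were 6 comparisons, each adjusted by Benjamini-Hochberg over all genes and called at an adjusted p under 0.05. Errors of differences are SE and errors of levels are SD of 3 arrays. The 4-group fit shares 1 spread per gene, so it is wide for iPS cells and leukemia and narrow for colonies. The steps were tested on simulated data.

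The genes, the pathway and marker lists and the tests were chosen with earlier results of these data known. The genes named were the 9 listed, Nanog and Cd3e as checks, for each the 3 nearest genes by r, and in each pathway list the largest called difference up and down. Other called genes of the lists were named after their values were seen. Marker lists covered T lineage, leukocyte, pluripotency, epithelial, fibroblast, and macrophage and granulocyte genes. List genes with no probe set of 1 symbol were not analysed. Promoter windows come from RefSeq (GRCm38.p6), and percentiles are the share of windows with fewer CpG sites. Alternatives were the fit of only the groups compared, cyclic loess, array weights, the replicate number as a block, the mean of probe sets, a filter on dim genes (a level of at least 6 on 3 arrays), a trended robust prior, and leaving out arrays.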

Additional observations from a re-analysis of the deposited data

How the results depend on the processing

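Every difference was refitted under 14 alternatives. Of the 48 differences of the 8 genes, 12 were called with all arrays. Of their 168 refits 146 were called in the same direction and 22 were not called. Of the 504 refits of the other differences, 45 were called in the same direction, 1 was called with the sign turned, and 458 were not called, 37 of these with the sign turned. The reversal was Dnmt3b in iPS cells against GFP-negative colonies, 0.41 in the fit of all arrays and -0.57 without both arrays that stood apart. The cause of the changes in counts below was not tested, and signal over background was not measured. With only the groups compared, the genes called were 10525 in place of 5395 for iPS cells against leukemia and 190 in place of 943 for iPS cells against GFP-negative colonies, and of the 8 genes 2 in place of 0 were called for iPS cells against GFP-positive colonies and 0 in place of 1 against GFP-negative colonies. With array weights the genes called were 10367 for iPS cells against leukemia, 7120 in place of 4655 for GFP-negative colonies against leukemia, 13 in place of 0 between the colonies, and 5645 in place of 2304 and 2484 for iPS cells against GFP-positive and GFP-negative colonies. Of the 8 genes array weights gave 6 in both colony comparisons with leukemia, in place of 3 for the GFP-negative and 2 for the GFP-positive ones, and 3 and 2 for iPS cells against GFP-positive and GFP-negative colonies. Without both arrays that stood apart, 7296 genes were called for GFP-negative colonies against leukemia, 1049 between the colonies, 4535 for iPS cells against GFP-positive and 2222 against GFP-negative colonies. Of the 8 genes this gave 6 in both colony comparisons with leukemia, 2 between the colonies, and 3 and 2 for iPS cells against GFP-positive and GFP-negative colonies. For iPS cells against GFP-positive colonies, cyclic loess gave 2 of the 8 and the filter on dim genes 3.

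Leaving out single arrays gave 0 to 1019 genes and 0 to 1 of the 8 between the colonies, 597 to 3422 genes and 0 to 2 of the 8 for iPS cells against GFP-positive colonies, and 251 to 1755 genes and 0 to 2 of the 8 against GFP-negative colonies. Against leukemia it gave 4 to 5 of the 8 and 3900 to 4017 genes in iPS cells, 2 to 6 of the 8 and 3267 to 6033 genes in GFP-negative colonies, and 2 of the 8 in each case and 3407 to 4772 genes in GFP-positive colonies. The 6 and the 6033, 27.2% of all genes, both came without GFP-negative replicate 1. The most genes between the colonies came without GFP-negative replicate 1. Cyclic loess moved the share of calls that were higher to 57.1% in place of 43.9% for GFP-positive colonies against leukemia, 53.4% in place of 43.0% for GFP-negative colonies against leukemia, and 48.3% in place of 59.2% for iPS cells against GFP-positive colonies. It moved the median of all genes by under 0.1 in each comparison. Replicate numbers did not pair the arrays: deviations of same-numbered arrays correlated at -0.38 to 0.32, with 2 of 18 pairs over 0.1. The fit with the replicate block called 0 in place of 1 of the 8 for iPS cells against GFP-negative colonies, where Dnmt3a had an adjusted p of 0.0519, and changed no other call of the 8.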
